A study of Mus musculus with 32 samples.

Results

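The clustered protocadherin locus of the mouse was examined through its CpG sites, cytosines followed by guanine that can carry DNA methylation. The members were the CpGs of chromosome 18 from position 36930000 to 37842000 (GRCm38), an interval of 912 kb that holds the protocadherin alpha, beta and gamma gene clusters. Reads of both strands were summed, and a CpG was kept where each of the 16 retinas had 10 or more reads. This rule kept 686 CpGs of the locus out of 1071432 kept over chromosomes 1 to 19 and X. The interval sequence holds 11048 CpGs, and 2213 of them were read in at least 1 library, since reduced representation bisulfite sequencing (RRBS) reads only fragments next to cut sites of a restriction enzyme. The sites read are therefore a sample of CpG-dense stretches, and 495 of the 686 members lay in CpG islands by the rule used here. That rule gave 154 islands in the interval and 177684 over chromosomes 1 to 19 and X.

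The study compared retinas of female C57 BL/6J mice, 21 weeks old by the labels, that had spent 37 days on the International Space Station with retinas of ground habitat control mice kept in the same type of housing on Earth. The carcasses were frozen whole before the retinas were taken out. Each library came from 1 retina of 1 mouse, and DNA and RNA were taken from the same retinal samples. RRBS libraries numbered 8 for spaceflight (3 left and 5 right retinas) and 8 for ground control (3 left and 5 right retinas). RNA-seq libraries numbered 9 for spaceflight (4 left and 5 right retinas) and 7 for ground control (2 left and 5 right retinas).

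Clustered protocadherins are cell adhesion proteins that give each neuron a surface identity of its own. Each gene of the alpha and gamma clusters has its own promoter and a large variable exon, which is spliced to constant exons shared by the whole cluster, while beta genes have a single large exon. A neuron picks a few of the alternate promoters by chance, with help of the insulator protein CTCF and cohesin, and promoters that are not used tend to carry DNA methylation. The C-type genes Pcdhac1, Pcdhac2, Pcdhgc3, Pcdhgc4 and Pcdhgc5 at the ends of the alpha and gamma clusters are used in a more regular way. In the retina, gamma protocadherins are known for the self-avoidance of starburst amacrine cells and for the survival of interneurons.

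The libraries held between 59572205 and 105298542 read calls on CpG cytosines, with a median of 18 to 31 reads per cytosine. Over the members, the median was 45 to 79 reads per CpG and library. In the RNA-seq libraries the summed level of 6 rod genes was 12877 to 28067 FPKM (fragments per kilobase of transcript, scaled to the mapped fragments of the library) after spaceflight and 14840 to 27168 in ground control, and all 8 genes listed for inner retinal neurons were present. The summed level of 4 lens genes (Cryaa, Crygs, Crygd, Mip) ranged from 0.440 to 15251 FPKM after spaceflight, with a median of 35, and from 3.01 to 22939 in ground control, with a median of 312. All 3 genes listed for Mueller glia were lower after spaceflight, Glul with an unadjusted p of 0.0411 by limma. The summed level of 5 keratin genes of skin and cornea ranged from 9.54 to 841 FPKM after spaceflight and from 13.8 to 69.5 in ground control. Summed levels of 3 pigment epithelium genes ran from 652 to 3814 FPKM after spaceflight and from 550 to 6003 in ground control. Those of 4 melanocyte genes ran from 74.5 to 461 and from 69.2 to 831 FPKM. RNA of lens, skin and cornea, pigment epithelium and melanocytes thus varied strongly between libraries. The part of this and of glial RNA in the results on the locus was not tested.

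The members showed a level of methylation in the middle of the scale. Averaged over all 686 CpGs, methylation was 51.1% ± 0.63 (SD, n = 16 retinas), between 50.2% and 52.2%. The mean over all CpGs kept in the genome was 37.0% ± 0.219 (SD, n = 16). Of the members, 331 (48.3%) had a mean between 20% and 80%, 159 lay under 20% and 196 over 80%. Among all CpGs kept, 12% lay between 20% and 80%, 56.0% under 20% and 32% over 80%. The genome was tiled into 2579 windows of the length of the locus with at least 50 CpGs each, and the locus ranked 71 from the top in the share of CpGs between 20% and 80% and 10 in their number. The median window had 9.50% of its CpGs in that range.

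Methylation differed between the clusters in every retina. The alpha cluster (position 36930285 to 37188897, 131 members) had a mean of 50.9% ± 1.34 (SD, n = 16), the beta cluster (37264998 to 37521419, 121 members) 72.7% ± 1.06, and the gamma cluster (37661775 to 37841873, 361 members) 45.7% ± 0.700. The other 73 members lay between or outside the clusters. When only the upstream 1000 bp and the variable exons of alternate genes were taken, the means were 64.7% ± 2.30 for alpha (48 CpGs), 70.9% ± 0.969 for beta (97 CpGs) and 52.6% ± 0.991 for gamma (274 CpGs). The beta level exceeded the gamma level by 18.4 points ± 1.11 (SD, n = 16), in 16 of 16 retinas (exact sign permutation test, two-sided, p = 3.05e-05, the smallest 16 differences allow). The beta level exceeded the alpha level by 6.28 points ± 2.12, also in 16 of 16 retinas with the same exact p. In 10 comparisons of this kind the adjusted p was 3.05e-05 for each. The test takes the CpGs as fixed, so this p shows only that the sign recurred between retinas. Whether the clusters or kinds of genes differ across their genes was not tested. Promoters with at least 3 CpGs had a median of 74.0% for alternate alpha and 74.7% for beta genes. The clusters were also read at different distances from the start, with 28 of 48 alpha and 6 of 97 beta CpGs at 2000 to 2600 bp.

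**Figure D1:**
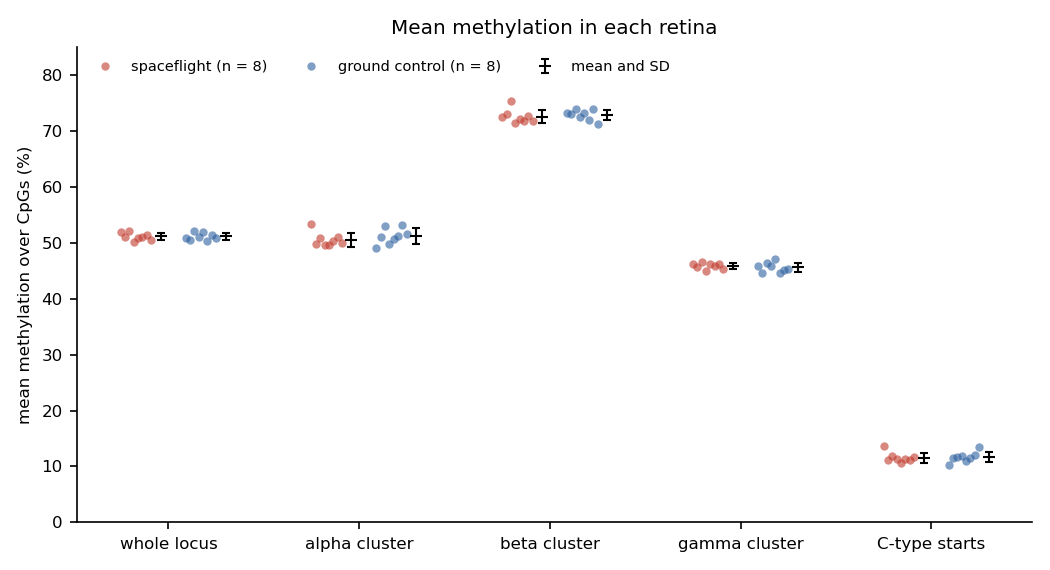
Mean methylation (%, y axis) of each retina over the whole locus, over each cluster and over the start regions of the C-type genes (x axis); points are single retinas and the bars give mean and SD of 8 retinas. The beta cluster sits above the others and the C-type starts near 11.6% in both groups.

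The C-type genes stood apart from the alternate genes. Over the upstream 1000 bp and the variable exon, the 5 C-type genes had a mean of 11.6% ± 0.874 (SD, n = 16; 120 CpGs), and the alternate genes 58.2% ± 0.826 (419 CpGs). The difference within a retina was 46.6 points ± 1.22 and lay between 44.1 and 48.4 points (exact sign permutation test, two-sided, p = 3.05e-05). The 2 sets were read at different distances from the start of the gene, and levels changed with distance. From 0 to 500 bp lay 59 of the 120 C-type and 103 of the 419 alternate CpGs, with means of 7.67% and 39.2%. In the same order, the means were 7.65% and 60.4% from 500 to 1000 bp. They were 60.3% and 69.5% from 2000 to 2600 bp. The part of distance in the difference of 46.6 points was not tested. The CpGs of the locus outside starts, variable exons and constant exons, without those of the Taf7 promoter, were mostly methylated, with a mean of 81.2% ± 0.865 (106 CpGs) and a median CpG of 91.5%. Starts of alternate genes were thus partly methylated stretches in surroundings of high methylation, and starts of C-type genes were low.

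A promoter was taken as 1000 bp to either side of the start of the gene. Of the 58 genes of the clusters, 32 had a member CpG in the promoter and 28 had at least 3. Of these 28, 23 had a mean between 20% and 80%, 4 lay under 20% and 1 over 80%. Of 18904 promoters of the genome with at least 3 CpGs, 11.1% lay between 20% and 80% and 73.9% under 20%. The 4 low promoters were those of C-type genes.

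Pcdhac2, a C-type alpha gene known for the spacing of serotonergic axons, had the lowest promoter (37142678 to 37144678, 17 CpGs). Its level was lowest 0, median 0.640 and highest 1.57% in the spaceflight retinas and lowest 0.318, median 0.896 and highest 1.12% in the ground control retinas. The promoter of Pcdhgc3 (37805410 to 37807410, 38 CpGs), the C-type gene with the highest RNA level, lay at 2.44% ± 0.656 (SD, n = 16). The promoter of Pcdhgc4 (37814079 to 37816079, 14 CpGs), the gamma gene needed for the survival of neurons, lay at 8.10% ± 1.72. Pcdhac1 (37089136 to 37091136, 25 CpGs) had 13.1% ± 1.95. Pcdhgc5 was the exception among the C-type genes, with 32% ± 6.23 over only 2 promoter CpGs and 45.8% ± 3.35 over the 7 CpGs of its variable exon. The variable exon of Pcdhac1 was also higher than its promoter, at 30.3% ± 3.92 over 13 CpGs.

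Among alternate alpha promoters, 5 of 12 had at least 3 member CpGs and 7 had none. Pcdha8 (36991467 to 36993467, 4 CpGs) was the highest at 79.1% ± 3.0 (SD, n = 16), followed by Pcdha4 at 74.4% ± 3.74 and Pcdha12 at 74.0% ± 4.79. Pcdha3 (36945088 to 36947088, 3 CpGs) was the lowest of them and had the widest spread among promoters with at least 3 CpGs. Its level was lowest 19.7, median 29.5 and highest 52.2% after spaceflight and lowest 16.7, median 29.3 and highest 41.4% in ground control, so the groups overlapped widely. Its 3 CpGs lay from 545 to 560 bp after the start, so the same reads can cover all of them, at a median of 30.5. The SD was 9.22 points, and counting alone would give 4.78 if reads were independent between CpGs. Shared reads raise the counting SD, and the part of counting in this spread was not tested. The order of Pcdha8, Pcdha4 and Pcdha12 was not tested within retinas. Pcdha5, at 33.4% ± 5.55, was the other low one.

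The 5 beta promoters with at least 3 CpGs had a median of 74.7%, beside 74.0% for the 5 alternate alpha ones. Pcdhb17 (37484021 to 37486021, 6 CpGs) was the most methylated promoter among those with at least 3 CpGs, at 88.6% ± 1.38 (SD, n = 16), with retinas between 85.8% and 90.9%. Pcdhb13 and Pcdhb3 lay at 76.9% ± 3.24 and 74.7% ± 4.51. Among beta promoters with at least 3 CpGs, Pcdhb1 (37263998 to 37265998, 13 CpGs) and Pcdhb2 (37293840 to 37295840, 11 CpGs) were the lowest, at 52.4% ± 3.43 and 53.7% ± 2.5. These 2 did not differ beyond their spread between retinas, and a difference within retinas was not tested. Of 22 beta genes, 14 had no member in the promoter, so the cluster was seen through few of its genes.

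The gamma cluster was read most fully, with 14 of 19 alternate promoters covered by at least 3 CpGs. Their levels ran from 21.2% to 66.5% with a median of 42.0%. Pcdhga4 (37684237 to 37686237, 13 CpGs) was the highest at 66.5% ± 2.51 (SD, n = 16), then Pcdhga3 at 61.9% ± 3.03 and Pcdhgb2 at 49.9% ± 5.48. Pcdhgb7 (37750619 to 37752619, 6 CpGs) was the lowest alternate promoter at 21.2% ± 2.57. Its 8 spaceflight retinas lay between 19.4% and 24.5%, and its 8 ground control retinas between 16.6% and 25.1%.

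**Figure D2:**
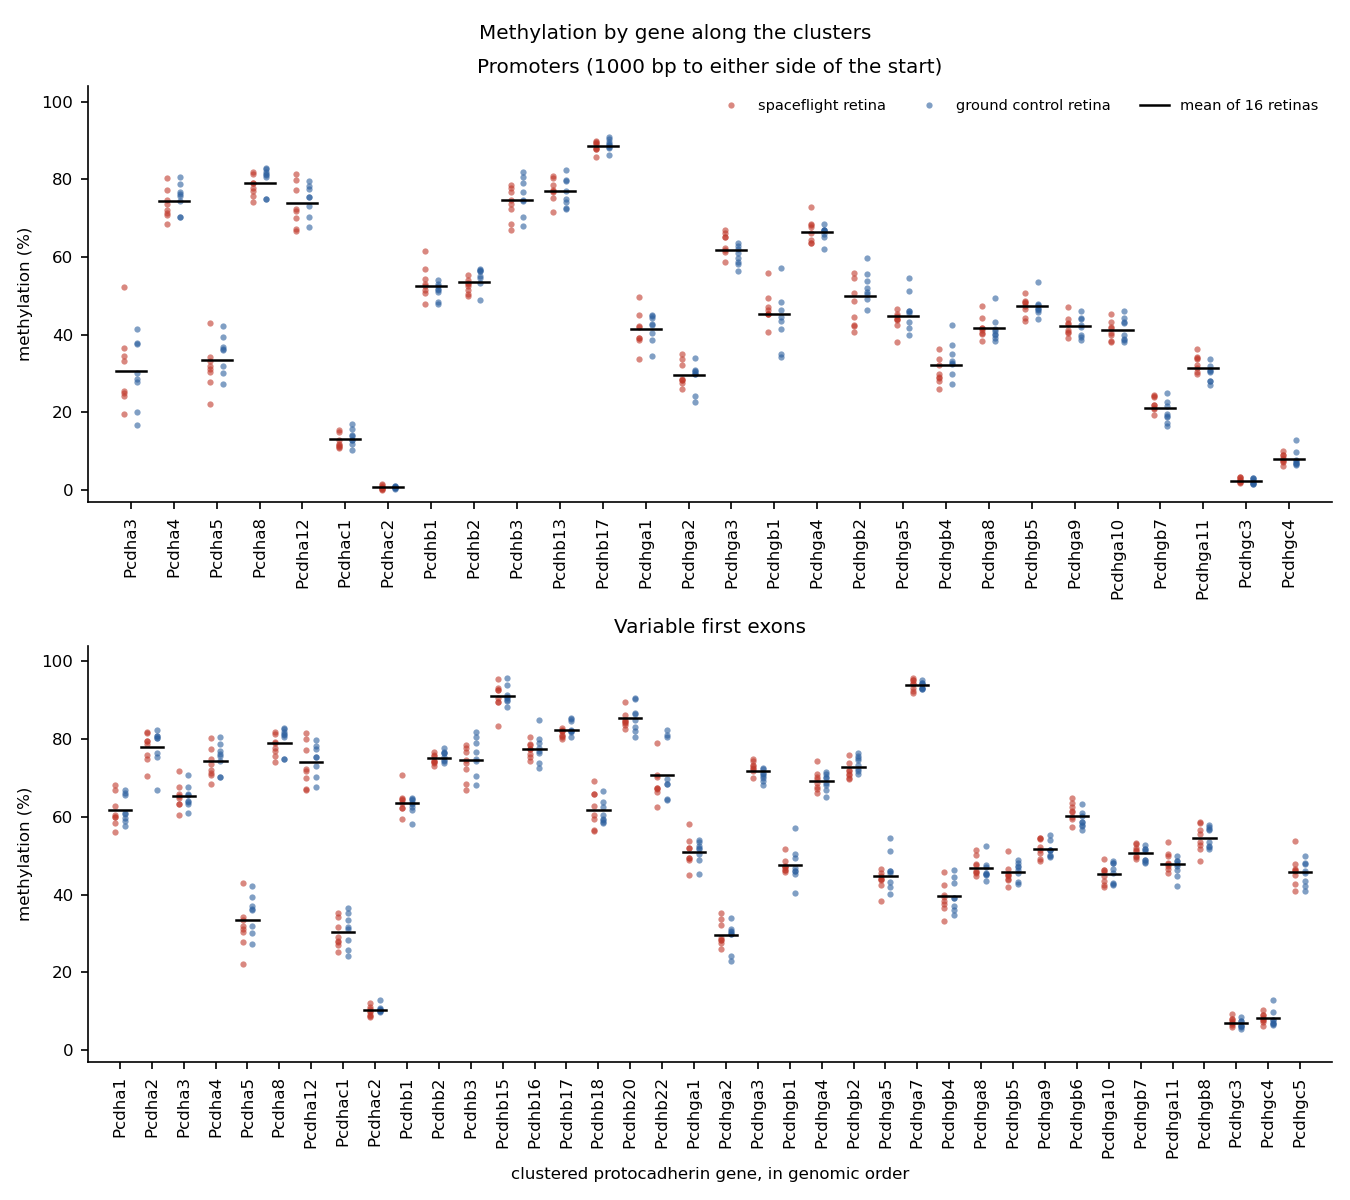
Methylation (%, y axis) of promoters and of variable exons with at least 3 member CpGs, by gene in genomic order (x axis); each point is 1 retina and each line the mean of 16 retinas. C-type genes lie low except for the variable exons of Pcdhac1 and Pcdhgc5, and the ranges of both groups overlap for every gene.

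Levels were higher inside the variable exons than around the starts, with a median of 50.7% for the variable exons and 42.2% for the promoters of the 27 genes that had at least 3 CpGs in both. The variable exon was higher in 17 of these genes and lower in 2, and in 8 both regions held the same CpGs. Of 58 genes, 38 had at least 3 members in the variable exon, and 31 of these lay between 20% and 80%. In alternate genes the mean was 26.7% ± 2.22 (SD, n = 16; 15 CpGs) over the 1000 bp upstream of the start and 39.2% ± 1.17 (103 CpGs) from 0 to 500 bp. It was 60.4% ± 1.39 (101 CpGs) from 500 to 1000 bp and 75.7% ± 1.15 (88 CpGs) from 1000 to 1500 bp. Further in, it was 60.9% ± 1.12 (69 CpGs) from 1500 to 2000 bp and 69.5% ± 1.76 (43 CpGs) from 2000 to 2600 bp. Not every gene had CpGs in each interval. The level from 1500 to 2000 bp exceeded that from 0 to 500 bp by 21.7 points ± 1.07 (SD, n = 16), in 16 of 16 retinas (exact sign permutation test, two-sided, p = 3.05e-05).

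Within single genes the rise was seen too. CpGs of both the 0 to 500 bp and the 1000 to 1500 bp stretch were available in 12 alternate genes, and the later stretch was higher in 12 of 12, by 20.4 to 55.2 points with a median of 34.9. In 11 of these genes the later stretch was higher in each of the 16 retinas, and in Pcdhgb1 in 15. Pcdhga1 had the widest step, from 37.5% ± 4.40 (SD, n = 16) to 92.7% ± 1.77, and Pcdhga8 the narrowest, from 43.3% ± 3.05 to 63.7% ± 3.77. These 2 genes were chosen after their values were seen. The alpha genes were read in few places of the exon, with 4 CpGs from 0 to 500 bp at 79.1% ± 3.0, all of them in Pcdha8, 15 CpGs from 500 to 1000 bp at 51.9% ± 3.67 and 28 CpGs from 2000 to 2600 bp at 69.0% ± 2.90, drawn from different genes. In Pcdha3, 3 CpGs from 545 to 560 bp lay at 30.7% ± 9.22 and 9 CpGs from 1984 to 2141 bp at 76.8% ± 2.79, and the later stretch was higher in 16 of 16 retinas. Pcdha3 was taken here after its values were seen.

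C-type genes were low over a longer stretch. Their mean was 1.90% ± 0.675 (SD, n = 16; 22 CpGs) over the upstream 1000 bp, 7.67% ± 0.916 (59 CpGs) from 0 to 500 bp and 7.65% ± 2.12 (15 CpGs) from 500 to 1000 bp. It was 25% ± 1.99 (17 CpGs) from 1000 to 1500 bp and 60.3% ± 3.56 (5 CpGs) from 2000 to 2600 bp. The genes weighed unequally in these means. Of 98 CpGs in C-type variable exons, Pcdhgc3 held 40 and Pcdhac2 24, and not every gene had CpGs in each interval. The part of this in the profile was not tested.

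**Figure D3:**
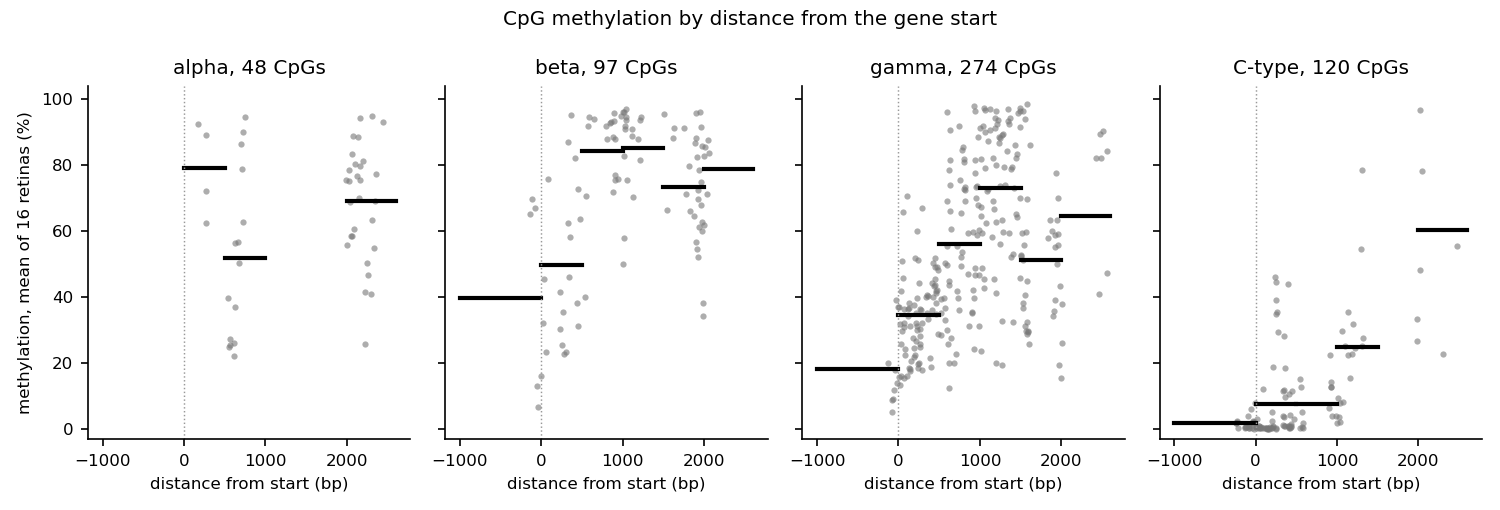
Methylation of single CpGs (%, mean of 16 retinas, y axis) against the distance from the start of the gene in bp (x axis, negative upstream), for alternate alpha, beta and gamma genes and for C-type genes; black lines are means of intervals with at least 3 CpGs. In gamma genes the interval means rise from 18.1% upstream to 73.2% at 1000 to 1500 bp. They lie lower further in, at 51.4% from 1500 to 2000 bp and 64.5% from 2000 to 2600 bp. In C-type genes the interval means stay under 8% up to 1000 bp.

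The few CpGs read in constant exons differed between the clusters. The 7 CpGs in constant exons of the alpha cluster had a mean of 85.5% ± 2.43 (SD, n = 16). The 3 CpGs in a constant exon of the gamma cluster (37825028 to 37825068) had 23.5% ± 7.23, with 16.5 reads per CpG and library at the median. Retinas lay between 7.91% and 33.3%. The same reads can cover all 3, and no other member lay in a gamma constant exon. The gamma constant exon lay 34.7 points ± 7.39 below the alternate start regions, in 16 of 16 retinas, and the alpha constant exons 27.3 points ± 2.60 above them (exact sign permutation test, two-sided, p = 3.05e-05 for each).

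Of the other genes that start in the interval, Taf7, which encodes a subunit of the general transcription factor TFIID, had 31 members within 1000 bp of its start. They were almost free of methylation, at 0.402% ± 0.170 (SD, n = 16). The pseudogene Gm8242 had 5 members in its promoter, at 81.8%, and the ornithine transporter gene Slc25a2 had none. A stretch of 7 CpGs in an island (37655533 to 37655667) between Taf7 and the gamma cluster, 6108 bp before the start of Pcdhga1, lay at 7.70% ± 2.36, with single CpGs from 1.64% to 25.1%. It was chosen after its values were seen, so its low level follows from that choice, and no protocadherin starts there. The 10 kb window that holds it (37650001 to 37660000) had a mean of 41.7% over 13 CpGs.

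The spread between retinas of the same group was wider than counting alone would give. For members between 20% and 80%, the median SD of a CpG between retinas was 7.84 points, and reads drawn independently at these depths would give 6.40. All CpGs of the genome in that range had 7.82 and 6.68. The overdispersion factor, the observed over the binomial variance, had a median of 1.5 for these members and 1.38 for all CpGs in that range, and exceeded 2 for 24.5% and 17.2%. The authors had removed duplicate reads by random tags, and the counting SD covers counting error only. Averaged over a gene, the SD between the 16 retinas had a median of 3.05 points for promoters and 2.95 for variable exons. Among promoters and first exons of the genome with means between 20% and 80%, the SD within groups had medians of 3.64 and 3.99 points. The 2 measures are unlike, since that of the protocadherin genes covers all levels and both groups together. These SDs include counting error, whose part was not tested by gene. Over the whole locus the SD was 0.63. Within groups it was 0.647, rank 350 from the highest among 2579 windows of the length of the locus, which had a median of 0.365.

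Spaceflight was then set against ground control. The mean of the locus was lowest 50.2, median 51.0 and highest 52.1% in the 8 spaceflight retinas and lowest 50.4, median 50.9 and highest 52.2% in the 8 ground control retinas. The ranges overlapped almost fully. The difference was -0.01 points ± 0.299 (SE; 95% interval -0.638 to 0.612; limma across 2579 windows of equal length, unadjusted p = 0.967, adjusted p = 0.999). No window of the genome passed the adjusted threshold of 0.05 (0% called), and 92 (3.57%) stood at 0.05 or less before adjustment. The difference was 0.40 points in left and -0.260 points in right retinas, with adjusted p over 0.99 in each, and the 2 eyes were not tested against each other.

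How the reads were combined moved the size of this difference. With reads summed over all CpGs, so that deeply read CpGs weigh more, the locus was at 50.7% ± 0.922 (SD, n = 8) after spaceflight and 52.1% ± 1.04 (n = 8) in ground control, and the logistic fit gave -1.44 points (unadjusted p = 0.0114, adjusted p = 0.0806). The median of all 2579 windows shifted by -2.03 points in that fit, and it called 107 windows (4.15%), each of them lower after spaceflight. The shift of the locus was smaller than that of the median window, and the locus was not among those called.

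Single CpGs showed no call. The logistic model with overdispersion across 1071432 CpGs called 0 members, and 0% of all CpGs, at an adjusted p of 0.05 and a difference of at least 10 points. At an unadjusted p of 0.05 or under it had 23 of 686 members (3.35%), 8 higher and 15 lower after spaceflight, beside 4.09% of all CpGs (1.95% higher and 2.14% lower). The share of members was below that of the genome here, and above it in 5 of 7 other settings. Both criteria, without adjustment, were met by 4 of 686 members, 1 higher and 3 lower, beside 2015 of 1071432 CpGs (0.188%), a smaller share. A difference of at least 10 points was found for 7 members, 2 higher and 5 lower (1.02%), beside 0.268% of all CpGs. The part played in both by the larger share of members in the middle of the scale was not tested. No member had groups that did not overlap, beside 0.00803% of all CpGs. After spaceflight 48.1% of the members were higher, and 47.1% of all CpGs.

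The CpG with the widest difference lay in the variable exon of Pcdhga9 (37738110, 1174 bp from the start). It was at lowest 60, median 75 and highest 87.5% after spaceflight and at lowest 44.4, median 57.6 and highest 81.0% in ground control, with 13 to 46 reads per library. Its pooled difference was 14.4 points (logistic fit, unadjusted p = 0.0230, adjusted p = 0.865). In the constant gamma exon, the CpG at 37825068 was 10.8 points higher after spaceflight (unadjusted p = 0.0650), with 10 to 43 reads per library. Of the 5 CpGs lower by at least 10 points, the 3 with the smallest p lay in the variable exons of Pcdhb2 (37295374, -10.4 points, unadjusted p = 0.00819), Pcdhb22 (37520282, -11.8 points, 0.0179) and Pcdha5 (36960897, -10.1 points, 0.0363). The Pcdhb2 CpG was read 41 to 124 times per library, and its retinas lay between 28.1% and 40.4% after spaceflight and between 36.6% and 57.3% in ground control, with an overlap of the groups. The adjusted p was 0.865 for each of these 5 CpGs.

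Over promoters, limma across 18904 genes called 0 of the 28 protocadherin promoters (0.00529% called among all), and the lowest adjusted p among them was 0.979. An unadjusted p of 0.05 or under was reached by 2 of 28, beside 4.77% of all promoters. Differences ran from -4.83 to 3.13 points with a median of -0.10, 13 higher and 15 lower after spaceflight. Pcdhga11 was at lowest 29.9, median 32.9 and highest 36.3% after spaceflight and at lowest 27, median 30.5 and highest 33.7% in ground control over 21 CpGs, a difference of 2.67 points ± 1.2 (SE, unadjusted p = 0.0396 by limma). Pcdhga3 was higher by 3.13 points ± 1.42 (SE, unadjusted p = 0.0406 by limma). With 20 or more reads per CpG it was higher by 1.67 points, and with 10 or more by 4.44 points in right and 0.962 points in left retinas. Pcdhgb2 was lower by 4.83 points ± 2.42 (SE, 3 CpGs, unadjusted p = 0.0615 by limma), and Pcdhb2 by 2.26 points ± 1.32 (SE, unadjusted p = 0.105 by limma). On summed reads Pcdhb2 was lower by 5.44 points (unadjusted p = 0.0391 by logistic regression), and in left retinas by 1.24 points. Pcdhgb2 was lower by 7.41 points in left retinas. The retinas of both groups overlapped for each of the 4.

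Variable exons gave the same picture of small differences. Of 38 genes, 0 were called by limma across 13042 genes (0% called among all), and 1 was at 0.05 or less before adjustment, beside 4.95% of all. Differences ran from -3.54 to 2.2 points. Pcdhga3 was higher by 2.2 points ± 0.986 (SE, unadjusted p = 0.0396 by limma) and Pcdhgb6 by 2.12 points ± 1.40, while Pcdhb17 was lower by 1.51 points ± 0.827 and Pcdhgb2 by 1.87 points ± 1.15. With 20 or more reads Pcdhga3 was higher by 1.2 points (unadjusted p = 0.225 by limma) and Pcdhb17 lower by 2.40 points (unadjusted p = 0.0161 by limma). Pcdhgb6 was higher by 0.974 points in right and 4.04 points in left retinas. Pcdhb17 was lower by 0.876 points in right and 2.57 points in left retinas, and by 2.37 points on summed reads (unadjusted p = 0.00526 by logistic regression). The precision of these estimates had a median SE of 1.55 points, and the 95% intervals of all 38 lay within -9.82 and 5.15 points. For promoters they lay within -9.92 and 10.5 points.

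**Figure D4:**
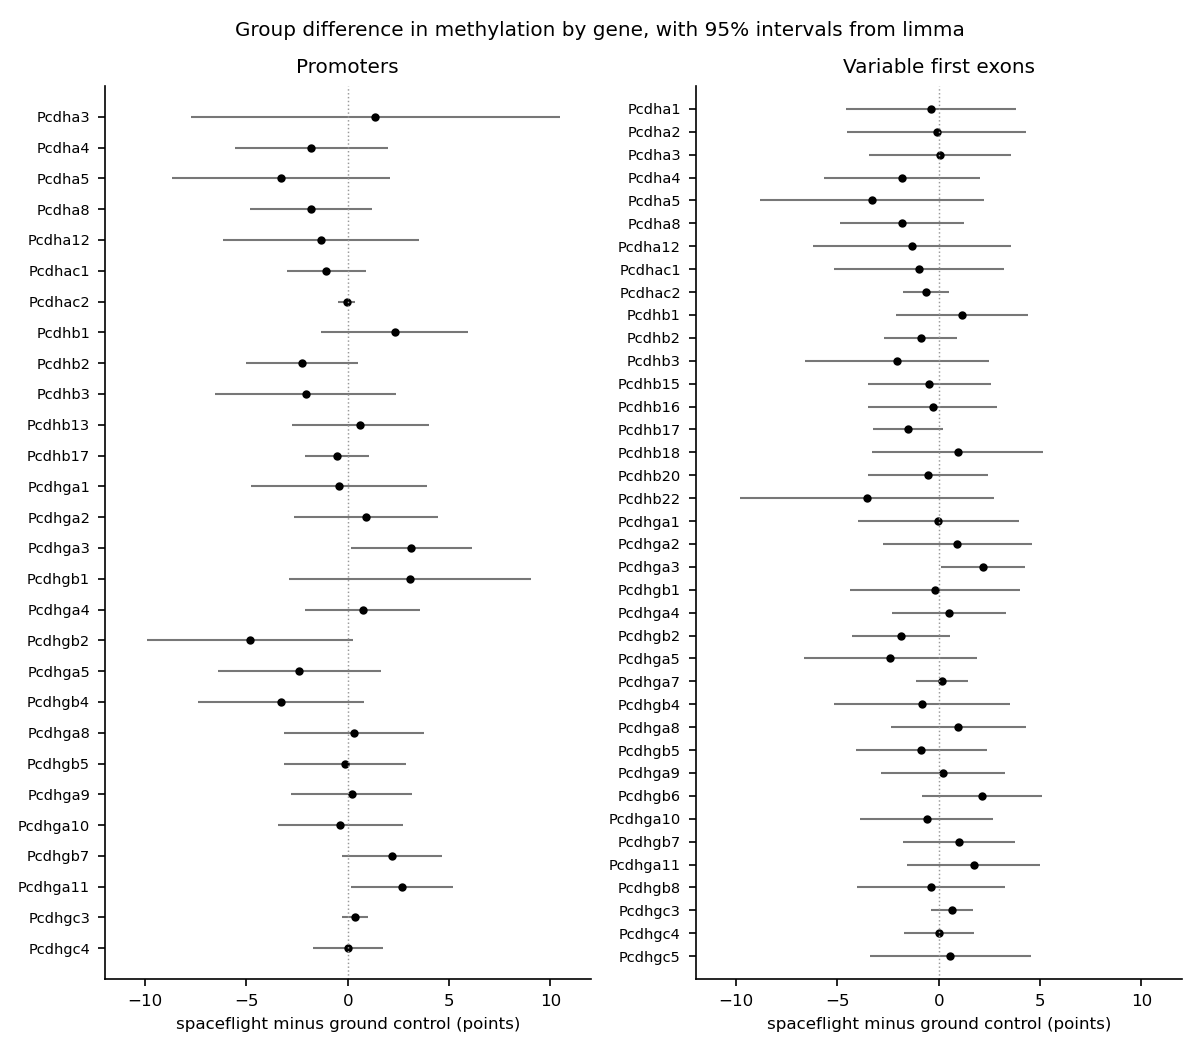
Difference in methylation between spaceflight and ground control (points, x axis) by gene (y axis, genomic order) for promoters and variable exons; dots are differences of group means and lines 95% intervals from limma. The intervals of Pcdhga3 in both panels and of Pcdhga11 among promoters do not cross 0, and no adjusted p passed 0.05.

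In 10 kb windows the same fit was made without gene models. Of 47 windows within the locus with at least 3 CpGs, 6 had a mean under 20%, 25 between 20% and 80% and 16 over 80%, and 0 were called by limma across 71913 windows (0% called among all). At most 0.05 was the unadjusted p of 2 of 47, beside 4.69% of all windows. The window from 37670001 to 37680000, holds the same 16 CpGs as the variable exon of Pcdhga3 and so repeats its difference (unadjusted p = 0.0336 by limma). The window from 37790001 to 37800000 was lower by 2.24 points over 3 CpGs (unadjusted p = 0.0403 by limma), at a level of 97.2%, and by 1.06 points in right and 4.21 points in left retinas.

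The RNA of the same genes gave a readout that the choice of the CpGs did not use. Genes of a cluster share constant exons and have similar variable exons, so the FPKM of a gene depends on how the authors' software divided shared reads and single values are uncertain. All 58 genes had values, and 53 had a mean of at least 1 FPKM. In a whole retina, fewer cells of a type and less RNA per cell cannot be told apart. Alternate alpha genes had the lowest median, 1.14 FPKM, with means from 0.467 to 1.64 FPKM. Beta genes ran from 0.201 to 8.54 FPKM with a median of 2.93, and alternate gamma genes from 2.30 to 15.1 FPKM with a median of 7.92. The C-type genes ran from 1.63 FPKM for Pcdhac1 to 23.3 FPKM for Pcdhgc3.

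The 8 genes with the highest mean level were Pcdhgc3 at 23.3 FPKM, Pcdhgb6 at 15.1, Pcdhga4 at 11.2, Pcdhac2 at 11.1, Pcdhga3 at 9.63, Pcdhgb7 at 9.17, Pcdhga2 at 8.70 and Pcdhga10 at 8.69. Levels and methylation did not run in 1 order. Pcdhga4 had the highest promoter methylation of the gamma genes and Pcdhgb7 the lowest of the alternate ones, at 11.2 and 9.17 FPKM, and Pcdhac1 had 13.1% methylation at 1.63 FPKM. Over the 28 genes with a promoter value, Spearman's rho between methylation and mean FPKM was -0.33 across genes, and it was -0.30 over the 24 alternate genes and 0.04 over the 14 alternate gamma genes. These are descriptions across genes of the same retinas, which differ in the number and place of CpGs and share reads.

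**Figure D5:**
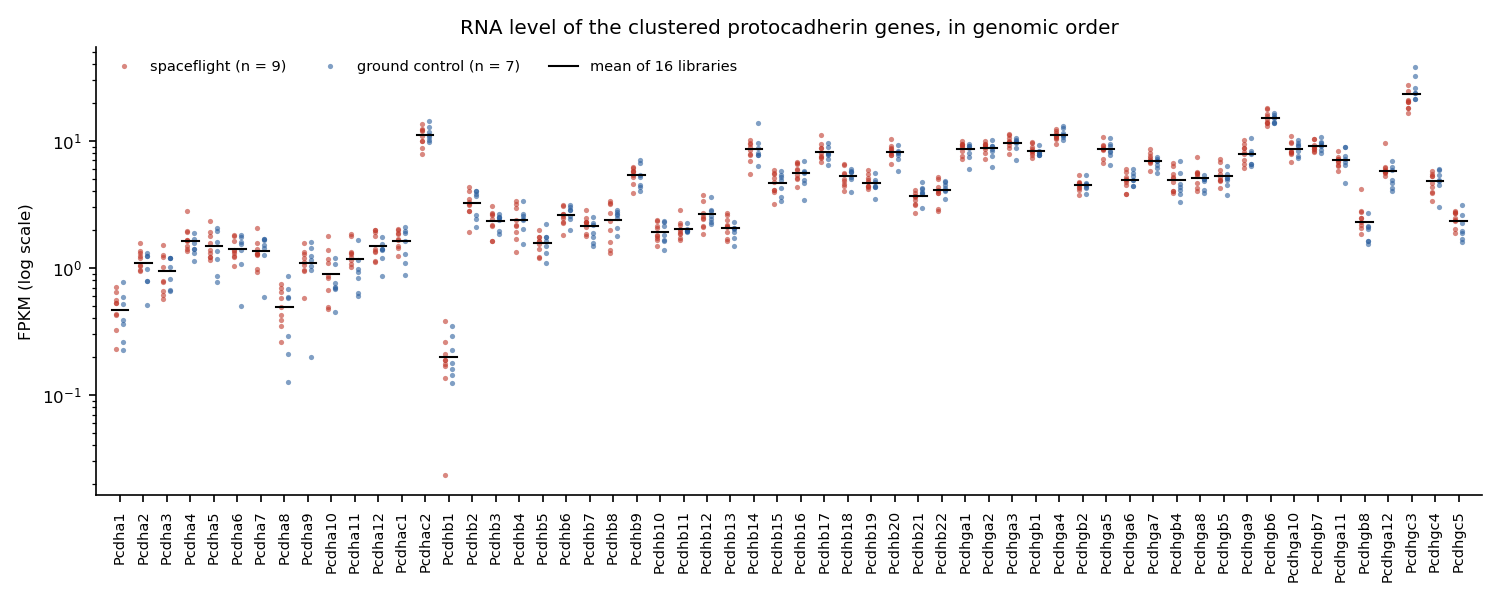
RNA level of the 58 clustered protocadherin genes (FPKM, log scale, y axis) in genomic order (x axis); points are single libraries and lines the mean of 16 libraries. Alternate alpha genes lie between 0.467 and 1.64 FPKM on average, and Pcdhgc3 is highest at 23.3.

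Between the groups, RNA showed no call in the fit on group alone, and 1 with eye added. The study's thresholds (a fold of at least 1.2, p of 0.05 or under and adjusted p of 0.3 or under) were met by 0 of 53 protocadherin genes with limma, and by 0% of the 14336 genes tested. At an unadjusted p of 0.05 or under there were 3 of 53, beside 7.30% of all genes. After spaceflight 32 of the 53 were higher and 21 lower, with a median log2 change of 0.04, beside 53.3% of all genes higher and a median of 0.01. In right retinas alone the direction turned, with 20 higher, 33 lower and a median of -0.04, beside 51.7% of all genes higher. The group means summed over all 58 genes came to 283 FPKM after spaceflight and 283 FPKM in ground control.

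Pcdhgc3 was at lowest 16.6, median 20.2 and highest 27.3 FPKM after spaceflight and at lowest 21.3, median 23.9 and highest 37.8 in ground control, so the groups overlapped. Its log2(FPKM + 0.1) change was -0.35 ± 0.13 (SE, unadjusted p = 0.0137, adjusted p = 0.642 by limma). Pcdha11 changed by 0.47 ± 0.20 (SE, unadjusted p = 0.0318 by limma) at a mean of 1.18 FPKM. Pcdhgb8, a transcribed pseudogene in the RefSeq annotation used here, and Pcdhga12 had log2 changes of 0.35 (unadjusted p = 0.0378) and 0.23 (unadjusted p = 0.0932). For both of them the highest library was mouse M21, whose group labels disagree, spaceflight by source and ground control by condition. Without M21 the changes were 0.26 and 0.15, and with M21 in ground control 0.13 and 0.04. In right retinas alone they were 0.20 and 0.15. Pcdhgc3 was at -0.33 without M21, -0.26 with M21 in ground control and -0.20 in right retinas alone (unadjusted p = 0.136 by limma), and its highest ground control libraries were the left retinas M31 and M32, at 37.8 and 32.2 FPKM. With eye as a term in the fit, an alternative chosen after seeing the data, Pcdhgc3 was at -0.39 (unadjusted p = 0.00413, adjusted p = 0.270 by limma) and passed the thresholds. It was 1 of 53 protocadherin genes to do so, beside 1.91% of all genes (274 of 14336). Results by eye rest on mouse numbers that differ between labels for some ground control RNA libraries, so they are uncertain.

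Genes that regulate the locus showed no call in the fit on group alone. The list held 18 genes for CTCF, cohesin, DNA methylation and its removal and silencing, of which 16 were tested, 13 of them higher and 3 lower after spaceflight, beside 53.3% of all genes higher. Of the 16, 0 passed the thresholds (0% of all genes) and 0 an unadjusted p of 0.05 (7.30% of all genes). The median log2 change was 0.04, beside 0.01 over all genes. Ctcf itself was at 35.2 ± 3.81 FPKM (SD, n = 9) after spaceflight and 34.6 ± 3.87 (n = 7) in ground control. The smallest p were those of Tet2, which oxidises methylated cytosine, with a log2 change of 0.17 (unadjusted p = 0.0556 by limma), and Smchd1, a chromatin protein that silences the clusters, with 0.17 (unadjusted p = 0.132 by limma). Of 12 protocadherin genes outside the clusters, 11 were tested, 3 higher and 8 lower, beside 53.3% of all genes higher, and 0 passed the thresholds or an unadjusted p of 0.05. Pcdh15, a component of photoreceptor and hair cell links, had 0.15 (unadjusted p = 0.232 by limma) and Pcdh18 -0.13 (unadjusted p = 0.359 by limma).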

How the data were processed

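DNA methylation was measured by RRBS and RNA by RNA-seq in retinas. Per the labels and methods, the authors trimmed RRBS reads with Trim Galore 0.4.5, removed duplicates by random tags, aligned them to GRCm38 with Bismark and deposited, for each library and CpG cytosine, the coverage and percent of methylated and unmethylated reads, from which read counts were rebuilt. The FPKM values that the authors deposited came from Trimmomatic, TopHat2 and Cufflinks, with no counts. The members and gene lists were chosen with earlier results of these data known. Reads of both strands were summed and CpGs with 10 or more reads in all 16 libraries kept. Gene starts and exons came from the GRCm38 annotation of RefSeq. Single CpGs were tested by logistic regression with an overdispersion factor and an F-test (numpy 2.4.6, scipy 1.17.1). Region means, each CpG weighing alike, and log2(FPKM + 0.1) of genes with a mean of at least 1 FPKM were tested with limma 3.58.1 (R 4.3.3) with a mean-variance trend. P-values were adjusted by Benjamini-Hochberg over all features of the genome. Regions needed 3 CpGs, locus-length windows 50. CpG islands were found in the GRCm38 sequence with a minimum length of 200 bp, a GC share of 50% and a CpG ratio (observed over expected) of 0.6.

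Named were the C-type genes, the 3 highest and 3 lowest promoters of each cluster (C-type genes included), the CpGs differing by at least 10 points (3 each way) and the promoters and variable exons (2 each way) with the smallest p, 2 windows, and in RNA the 8 highest genes and the 4 with the smallest p. The scripts were tested on simulated data. RNA columns were matched to samples by title, and 2 columns that matched no sample were left out. For 6 ground control RNA libraries the mouse numbers differ between labels. The eye of these libraries is therefore uncertain, and so are RNA results for right retinas alone and with eye as a term. Of the RNA table, 1 row named no gene and was left out.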

Additional observations from a re-analysis of the deposited data

Results flagged for a closer look

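Of 112 groups of values examined, 9 had a highest or lowest library far from the rest by Dixon's test, and chance alone gives about 1 in 20. Among spaceflight retinas, M21 was highest in the alpha cluster, at 53.3% beside 49.5% to 51.1% in the others, and in the C-type start regions, at 13.6% beside 10.6% to 11.9%. M23 was highest in the beta cluster, at 75.3% beside 71.5% to 73.0%, and in the beta start regions, at 73.3% beside 69.9% to 70.9%. Among ground control retinas, M37 was highest in the alpha constant exons, at 90.9% beside 82.4% to 86.0%. M34 was lowest at the Pcdhb2 promoter, at 48.9% beside 53.4% to 56.8%. M39 was highest in the variable exon of Pcdhac2, at 12.8% beside 9.85% to 10.8%. In RNA, library M21, spaceflight by source and ground control by its condition label, was highest for Pcdhga12, at 9.62 FPKM beside 5.30 to 6.17, and for Pcdhgb8, at 4.21 FPKM beside 1.84 to 2.79.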

How the results depend on the processing

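No paired analysis was possible because the spaceflight and ground control mice share no mouse number. The number of protocadherin CpGs, promoters, variable exons and 10 kb windows called, and of RNAs, was 0 as reported and 0 under each of these alternatives: for methylation 20 reads in place of 10, strands apart, no overdispersion factor, the arcsine scale, summed reads, eye as a term, left or right retinas alone, 5 CpGs in place of 3, without spaceflight mouse M22 or ground control mouse M31 (the 2 libraries with the lowest mean over all CpGs), each where it applies, and for RNA another pseudocount, other filters, no trend, right retinas alone and other groups of M21. Over all features, the fit without the overdispersion factor called 135 of 1071432 CpGs, and right retinas alone gave 1 of 14336 genes in RNA. The other settings for single CpGs, and the other RNA settings on group alone, called 0 of all features. Calls over all regions in these settings are not given here. With eye as a term in the RNA fit, added after the data were seen, RNA calls went from 0 to 1 (Pcdhgc3, lower) and those of all genes from 0 to 274. The mean difference of the locus, -0.01 points as reported, was -1.44 points with summed reads, and its sign depended on the setting: it was 0.000184 on the arcsine square root scale and 0.40 points in left retinas. Leaving out 1 library at a time moved it from -0.153 to 0.133, above 0 in 8 of 16 cases (0.00671 without spaceflight M22, 0.122 without M24, 0.0180 without M25, 0.0135 without M26 and 0.0729 without M29, 0.133 without ground control M33, 0.0996 without M35 and 0.0312 without M37), with the lowest unadjusted p at 0.604. Members with an unadjusted p of 0.05 or under rose from 23 to 88 without the overdispersion factor (12.8% of members and 8.82% of all CpGs) and fell to 8 in left retinas alone (1.17% and 0.723%). With 20 reads, a choice added after the data were seen, the level of alternate starts was 60.3%, that of their 0 to 500 bp stretch 41.2% and that of C-type starts 9.76%, on fewer CpGs.

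Depth limits single CpGs: at the median of 56 reads, the counting SD of a CpG in the middle of the scale is 6.40 points. The causes of these changes were not tested.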
